A study of Homo sapiens with 9 samples.

Results

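The cytosolic ribosomal protein genes were described in MDA-MB-231 cells that had survived a ferroptosis inducer. The genes were taken by a rule on name and annotation that used no measured value, though the members were chosen with earlier results of these data known. The rule took protein-coding rows whose symbol begins RPL or RPS followed by a digit, together with RPLP0, RPLP1, RPLP2 and RPSA. Ribosomal S6 kinases, symbols holding a hyphen and genes on chromosome Y were left out. This rule gave 86 of the 58735 genes in the files. They are 43 proteins of the large subunit, 31 of the small subunit, the 3 proteins of the P stalk, 8 near copies of ribosomal proteins and RPS19BP1, which matched the name pattern but binds RPS19 and is not a part of the ribosome. The rule does not take FAU, which encodes a ribosomal protein fused to a ubiquitin-like protein and is given among the other mRNAs of the translation machinery.

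MDA-MB-231 is an established line of triple-negative breast cancer, a tumor that lacks the estrogen and progesterone receptors and HER2 amplification. RNA was sequenced from cells treated with DMSO (vehicle) and from erastin-R and RSL3-R cells, which had outlived rising doses of erastin and of RSL3, in 3 libraries per group. Erastin blocks cystine uptake by system xc- and RSL3 blocks GPX4, the enzyme that reduces lipid hydroperoxides, so both lead to ferroptosis, a cell death by iron-dependent lipid peroxidation. All groups come from the same line, the survivors are selected cells, and drug concentrations and times of these libraries are not given in the labels.

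The cytosolic ribosome is built from a large subunit, which holds the peptidyl transferase center and the tunnel through which the new protein leaves, and a small subunit, which reads the mRNA. Its proteins are made in near-equal amounts from single genes scattered over the genome, and surplus proteins are degraded. The mRNAs are among the most abundant of a proliferating cell, are stable, and nearly all begin with a C followed by a run of pyrimidines, the 5′ terminal oligopyrimidine (TOP) tract, through which mTORC1 and LARP1 control their translation. That control acts on translation and is not measured by the level of an mRNA.

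The TOP tract is the sequence feature that the members share and that the naming rule did not use. RefSeq start sites (GRCh38.p14) were given for 68 of the 86 members. A run of at least 8 C or T letters that reached within 5 bases of the annotated start was present in 49 of them (72.1%), against 11.3% of 27305 promoters, and the start base was a C in 48 (70.6%, against 14.99%). The median run was 11 letters in the members and 4 in all promoters. Windows of 30 bases are shown for members that the results below turn on, with the letter at the annotated start as the 11th and the run in capitals. They include members that fell in erastin-R (RPL41, RPL39, RPL38, RPS24, RPS27), in RSL3-R (RPS21, RPLP0, RPS29), and members that rose in RSL3-R (RPL4, RPL13A, RPS27L).
RPL41, chr12:56116623-56116652, plus strand: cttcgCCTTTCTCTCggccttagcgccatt
RPL39, chrX:119791611-119791640, minus strand: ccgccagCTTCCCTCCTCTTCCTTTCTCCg
RPL38, chr17:74203668-74203697, plus strand: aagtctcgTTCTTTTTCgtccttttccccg
RPS24, chr10:78033853-78033882, plus strand: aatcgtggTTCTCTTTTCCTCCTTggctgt
RPS27, chr1:153990752-153990781, plus strand: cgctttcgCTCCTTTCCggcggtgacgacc
RPS21, chr20:62387093-62387122, plus strand: ctagctgCTTCCTTTCTCTCTCgcgcgcgg
RPLP0, chr12:120201092-120201121, minus strand: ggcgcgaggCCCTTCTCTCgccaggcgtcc
RPS29, chr14:49598691-49598720, minus strand: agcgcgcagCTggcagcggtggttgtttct
RPL4, chr15:66504836-66504865, minus strand: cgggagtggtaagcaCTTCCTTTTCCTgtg
RPL13A, chr19:49487598-49487627, plus strand: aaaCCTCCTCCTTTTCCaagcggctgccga
RPS27L, chr15:63157458-63157487, minus strand: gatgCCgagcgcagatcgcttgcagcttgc
The runs were 9 to 22 letters long in the members shown, other than RPS29 and RPS27L, whose longest run near the annotated start was 2 letters. RPL13A and RPL4 carried a run and had higher counts in RSL3-R, while RPS21 and RPLP0 carried a run and had lower counts there. Without such a run, RPS29 had lower and RPS27L higher counts in RSL3-R. Whether the run goes with the direction was not tested. The letters describe the annotated start only. The starts used by these cells were not measured.

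Of the other motifs searched on both strands of the 300 bases around the start, CTTTCC, which can lie inside the pyrimidine run, was present in 31 of the 68 member promoters (45.6%, against 26.3% of all promoters). CCGGAAG, the core bound by ETS-family factors such as GABP, was present in 23 (33.8%, against 10.7%). CGCGAGA stood in 16 (23.5%, against 3.53%), ATGGCGG in 12 (17.6%, against 5.72%) and TATAAA in 7 (10.3%, against 11.95%). RPS21, which had the largest decrease in RSL3-R, carried CCGGAAG and, on the other strand and overlapping the pyrimidine run, CGCGAGA. Its promoter is shown with the pyrimidine run in capitals.
RPS21, chr20:62386853-62387152, plus strand: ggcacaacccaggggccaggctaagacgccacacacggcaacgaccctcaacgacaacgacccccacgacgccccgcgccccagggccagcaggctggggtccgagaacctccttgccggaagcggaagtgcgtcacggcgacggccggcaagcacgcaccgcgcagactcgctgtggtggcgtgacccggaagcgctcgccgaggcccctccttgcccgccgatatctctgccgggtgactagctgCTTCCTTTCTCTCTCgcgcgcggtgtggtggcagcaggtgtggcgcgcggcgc
A match shows the presence of these letters and not the binding of a factor.

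The libraries held 15405102 to 17273464 counts, and the spread between replicates over all genes was 8.56% (coefficient of variation estimated by edgeR). The labels do not say whether libraries of a group came from separate cultures, so the p values measure only the spread between these libraries. Of 5 genes known to be expressed in this line, VIM was at 1274 to 1581 CPM (counts per 1000000 of the library size) in the 9 libraries and passed no test. CAV1 and CD44 fell in both survivor groups (-1.14 and -0.86, and -0.15 and -0.43, log2), and KRT18 and S100A4 fell in erastin-R (-1.12 and -0.87). Of 4 genes known to be low or absent there, ESR1 and PGR reached at most 0.746 and 0.124 CPM, EPCAM 2.86 and CDH1 3.80, which rose in RSL3-R (1.58, adjusted p = 0.00130). Of 5 markers of other cell types, HBB had no count and ALB and CD3E reached at most 0.373 and 0.247 CPM. The other two moved with the groups. PECAM1 had 9.54, 10.9 and 9.50 CPM in vehicle, 2.14, 1.27 and 1.95 CPM in erastin-R and 13.1, 13.8 and 11.6 CPM in RSL3-R, and PTPRC, with 0.656, 0.247 and 0.370 CPM in vehicle, 0.655, 0.191 and 0.182 CPM in erastin-R and 1.22, 1.49 and 1.40 CPM in RSL3-R, rose in RSL3-R (1.67, adjusted p = 0.00818). The part of these markers in the results below was not tested. Erastin-R replicate 1 stood apart from replicates 2 and 3: on the third principal component of all genes (6.71% of the variance) it lay at -35.7, and the others at 14.4 and 13.0. The ribosomal protein genes took part in this, as did other genes. Over the members, the log2 CPM of replicate 1 had r = 0.957 and 0.963 with erastin-R replicates 2 and 3. With the RSL3-R libraries it had r = 0.995 to 0.997, and with the vehicle libraries 0.989 to 0.994. Over all genes it was nearest its own group, with 0.986 for replicates 2 and 3 against 0.966 to 0.972 for the other groups. Replicate 1 was above both other erastin-R libraries for 48 of the 84 members tested (57.1%, against 41.0% of all genes) and below both for 33 (39.3%, against 39.7%), with a median gap of 0.318 on the log2 scale (0.229 over all genes). The median coefficient of variation of the members was 4.55% in vehicle and 3.61% in RSL3-R, but 12.7% in erastin-R. Over all genes it was 7.55%, 6.95% and 12.3%. The members' value was thus near that of all genes in erastin-R and below it in vehicle and RSL3-R. The members had higher levels than all genes (median 369 CPM, against 19.2 CPM), and genes of similar level were not compared. It is therefore not shown that their spread in erastin-R was usual for their level. The gap of replicate 1 to the mean of replicates 2 and 3 was 0.5 or more (log2) for 23 members (27.4%, against 18.6% of all genes). For the counts of members and for the genes most affected, values without this library are given beside those with it.

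The members together took a smaller share of the counts in both survivor groups. In vehicle replicates 1 to 3 the share was 3.97%, 4.004% and 3.78% of all counts, in erastin-R 3.49%, 3.33% and 3.40%, and in RSL3-R 3.39%, 3.45% and 3.43%. Every survivor library lay below every vehicle library, and the survivor groups overlapped each other. The mean was 3.92% ± 0.123 (SD, n = 3) in vehicle, 3.40% ± 0.0816 in erastin-R and 3.42% ± 0.0295 in RSL3-R, a relative decrease of 13.1% and 12.6%. The exact permutation test (two-sided) gave p = 0.1 for each survivor group against vehicle, the smallest p that 3 against 3 libraries allow, and p = 0.8 between the survivor groups. The share of counts from mitochondrial DNA also differed between groups (8.41% ± 0.486 in vehicle, 6.45% ± 1.31 in erastin-R and 9.92% ± 0.349 in RSL3-R). With these counts left out of the total, the members' share was 4.28%, 3.64% and 3.80%, so that the order of the groups held and the decrease was 14.9% and 11.1%. In bulk RNA, fewer cells of a kind and less RNA per cell cannot be told apart. By role, the small subunit took 1.34 to 1.42% of counts in vehicle, 1.19 to 1.20% in erastin-R and 1.15 to 1.17% in RSL3-R. The large subunit was at 2.06 to 2.19% in vehicle, 1.73 to 1.98% in erastin-R and 1.93 to 1.97% in RSL3-R, and no survivor library reached the vehicle range for either subunit. The P stalk took 0.283 to 0.303% in vehicle and, lower as for the subunits, 0.230 to 0.232% in RSL3-R. It differed from them in erastin-R, with 0.242%, 0.329% and 0.323%, where replicates 2 and 3 were above vehicle. RPLP0 had the most counts of the stalk genes, and RPLP2 was below vehicle in every erastin-R library.

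**Figure D1:**
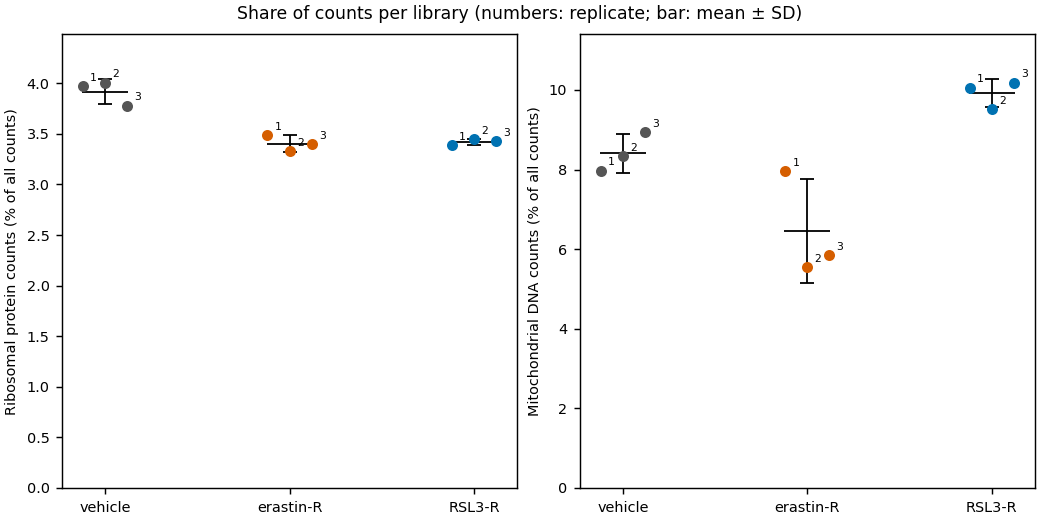
Counts of the 86 ribosomal protein genes (left) and of mitochondrial DNA (right) as a percentage of all counts, for each library (points, numbered by replicate) with the mean and SD of the 3 libraries of a group. The ribosomal protein share was 3.78 to 4.004% in vehicle and 3.33 to 3.49% in the survivors, while the mitochondrial share was lowest in erastin-R and highest in RSL3-R.

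Levels per length spanned a wide range within a family whose proteins are made in similar amounts. As CPM per kb of the deposited gene length, the highest mean levels over the 9 libraries were those of RPL13A (510.3), RPS18 (498), RPLP0 (460.1), RPS12 (430.1) and RPL7A (402). The order depended on the group: in vehicle RPS18 led with 589 CPM per kb, followed by RPS12 with 514, and in erastin-R and RSL3-R RPL13A led with 525 and 529.6. It also depended on the length used, since by the length of the principal transcript the leading members were RPS18, RPLP0, RPS16, RPL13A and RPS27. The median member had a mean of 369 CPM and the median gene 19.2 CPM. RPS10, RPL36A and RPL17 were the lowest members tested, with means of 5.13, 7.48 and 9.99 CPM. RPL3L, a near copy made in muscle, had 2 to 8 counts per library and RPL10L, a near copy made in testis, had none, and these were the only members that did not pass the filter on low counts.

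In erastin-R cells, 53 of the 84 tested members passed the test against vehicle in either direction, as did 54% of all genes. In RSL3-R cells 46 passed (48.7% of all genes) and between the survivors 36 (49.2%). Against vehicle the directions were unequal. In erastin-R, 52 of the 84 tested members fell against vehicle (edgeR's quasi-likelihood test, adjusted p under 0.05 by the Benjamini-Hochberg method over all genes), where 26.8% of all genes did, and 1 member, RPL39L, rose (27.1% of all genes). The median log2 fold change of the members was -0.26, and that of all genes -0.0042. When a log2 fold change of 1 or more was required as well, 4 members fell (6.66% of all genes), namely RPL23A, RPL41, RPL26 and RPL39, and none rose (6.7% of all genes), with edgeR at the adjusted or unadjusted p and with DESeq2. The 3 erastin-R libraries all lay below the 3 vehicle libraries for 47 members (29.1% of all genes) and above them for 2 (28.7%). Without erastin-R replicate 1, 59 members fell (30.3% of all genes in that fit) and 10 rose (29.6%), and 10 fell by at least 1 on the log2 scale (7.94%). Without vehicle replicate 1, or erastin-R replicate 2 or 3, the latter number was 2, and without erastin-R replicate 2 the number that rose was 2.

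In RSL3-R cells, 42 of the 84 tested members fell against vehicle, beside 24.9% of all genes, and 4 rose, namely RPL36A, RPS27L, RPL4 and RPL13A (23.8%). The median log2 fold change was -0.22 for the members and 0.0052 for all genes. No member passed with a log2 fold change of at least 1 in either direction (4.08% of all genes fell and 6.02% rose by that rule), also at an unadjusted p under 0.05 and with DESeq2. The RSL3-R libraries all lay below the vehicle libraries for 60 members (31.4% of all genes) and above them for 6 (30.4%). Without erastin-R replicate 1, whose spread enters the same model, 60 members fell (29.2% of all genes in that fit) and 7 rose (27.4%). Without vehicle replicate 3, 1 rose, and without RSL3-R replicate 2, 2 rose.

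Both comparisons used the same vehicle libraries. The members that fell in both numbered 29, which is 55.8% of those that fell in erastin-R and 69.05% of those that fell in RSL3-R. A further 23 fell past the threshold only in erastin-R and 13 only in RSL3-R, 14 passed the test in neither direction in either group, and no member passed in opposite directions. Passing in the one and not in the other is not a difference between the treatments, which was tested directly. Between RSL3-R and erastin-R, 18 members were higher in RSL3-R (22.3% of all genes) and 18 were lower (26.9%), none by 1 or more on the log2 scale (6.86% and 3.48% of all genes), also at the unadjusted p and with DESeq2. The libraries of the survivor groups did not overlap for 16 members that were higher in RSL3-R (25.6% of all genes) and 16 that were lower (29.5%). The shares of members were thus near those of all genes in this comparison. Without erastin-R replicate 1, 41 members were higher (27.1% of all genes in that fit) and 23 lower (30% of them), of which 4 and 1 by at least 1 (8.15% and 4.75%). Without erastin-R replicate 2 or 3, 9 were higher, and without erastin-R replicate 3 or any 1 RSL3-R library, 10 or 11 were lower.

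**Figure D2:**
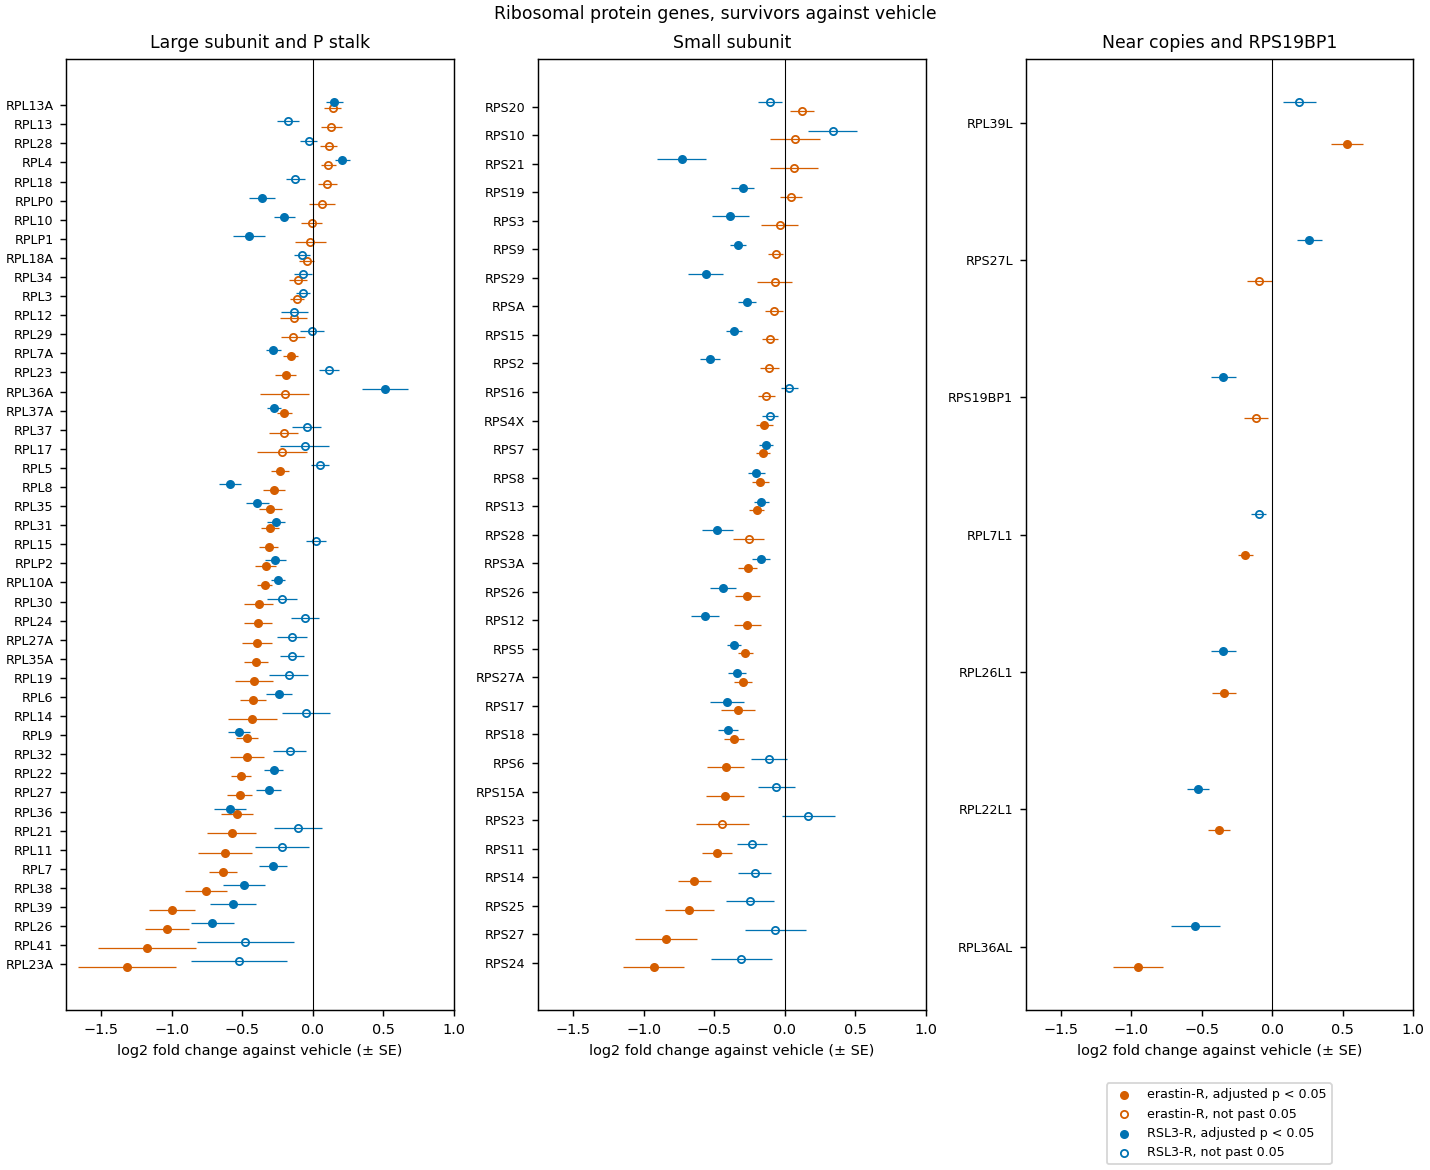
Log2 fold change against vehicle with its standard error for each tested member, in erastin-R (orange) and RSL3-R (blue), by subunit. Filled points passed an adjusted p of 0.05 in edgeR's quasi-likelihood test. Most points lie left of 0 in both groups, erastin-R values reach -1.32 (RPL23A) in the large subunit, and several small subunit and P stalk genes are near 0 in erastin-R and below 0 in RSL3-R.

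Within the large subunit, 29 of 43 members fell and none rose in erastin-R, with a median log2 fold change of -0.31, and 16 fell and 3 rose in RSL3-R, with a median of -0.17. Between the survivor groups 11 were higher and 4 lower in RSL3-R (median 0.16). As shares, 67.4% fell in erastin-R (26.8% of all genes, with 27.1% rising). In RSL3-R 37.2% fell and 6.98% rose (24.9% and 23.8% of all genes). Between the survivors 25.6% were higher, near the 22.3% of all genes, and 9.3% lower (26.9% of all genes). With erastin-R replicate 1 left out, 35 fell and 3 rose in erastin-R (30.3% and 29.6% of all genes in that fit). In RSL3-R 27 fell and 4 rose (29.2% and 27.4%), and 28 were higher and 5 lower between the survivors (27.1% and 30%). RPL23A (ENSG00000198242, chr17:28719393-28724359), which lies at the exit of the tunnel where the signal recognition particle docks, had 387, 325 and 289.6 CPM in vehicle, 251, 69.2 and 80.7 CPM in erastin-R and 217, 274 and 205 CPM in RSL3-R. Erastin-R replicates 2 and 3 were far below all other libraries, whereas replicate 1 was in the range of RSL3-R, and no erastin-R library reached the vehicle libraries. The log2 fold change was -1.32 ± 0.35 (SE, adjusted p = 0.00530) in erastin-R and -0.52 ± 0.34 (SE, adjusted p = 0.220) in RSL3-R, and without erastin-R replicate 1 the former was -2.16 (adjusted p = 1.18e-16). RPL41 (chr12:56116586-56117943), the shortest ribosomal protein, had 586, 526 and 499 CPM in vehicle, 454, 119.9 and 139 CPM in erastin-R and 366, 413 and 378 CPM in RSL3-R. It followed the same order of libraries, with erastin-R replicate 1 between the RSL3-R and the vehicle libraries. It stood at a log2 fold change of -1.17 ± 0.35 (SE, adjusted p = 0.0111) in erastin-R, -2.05 (adjusted p = 2.26e-20) without replicate 1, and -0.48 ± 0.34 (SE, adjusted p = 0.271) in RSL3-R.

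RPL39 (ENSG00000198918, chrX:119786504-119791643), a small protein in the wall of the tunnel, had 180.1, 181 and 156 CPM in vehicle, 120.3, 71.6 and 66.4 CPM in erastin-R and 119.7, 121 and 109 CPM in RSL3-R. It was lower in all 6 survivor libraries than in vehicle, and the log2 fold change was -1.001 ± 0.16 (SE, adjusted p = 1.57e-04) in erastin-R and -0.56 ± 0.16 (SE, adjusted p = 0.0103) in RSL3-R. The former was -1.32 (adjusted p = 4.91e-16) without erastin-R replicate 1, and the call in RSL3-R was lost without RSL3-R replicate 3. RPL26, also at the tunnel exit, had 52.4, 40.1 and 29.7 CPM in vehicle, 20.4, 18.9 and 20.3 CPM in erastin-R and 24.8, 26.6 and 23.2 CPM in RSL3-R. The erastin-R libraries lay close together, all survivor libraries lay below vehicle, and the vehicle libraries were the ones that spread. RPL26 fell by 1.04 in erastin-R and by 0.71 in RSL3-R on the log2 scale (adjusted p = 7.37e-05 and 0.00151). Of its coding length 60.7% lies under exons of another gene on the same strand, so reads there could be assigned to either gene or to none. RPL38, a small protein at the edge of the large subunit, had 202, 198 and 170.3 CPM in vehicle, 152, 90.03 and 94.4 CPM in erastin-R and 132, 131 and 144 CPM in RSL3-R, and no survivor library reached the vehicle range. Its log2 fold change was -0.76 ± 0.15 (SE, adjusted p = 7.22e-04) in erastin-R and -1.04 (adjusted p = 3.40e-14) without replicate 1.

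In RSL3-R the large subunit gene with the next largest decrease after RPL26 was RPL8, whose protein reaches close to the peptidyl transferase center. It had 983, 962 and 789 CPM in vehicle, 754, 729 and 778 CPM in erastin-R and 574, 647 and 596 CPM in RSL3-R, with RSL3-R below erastin-R and erastin-R below vehicle and no overlap between any of the groups. Against vehicle, RPL8 had a log2 fold change of -0.59 ± 0.079 (SE, adjusted p = 3.13e-05) in RSL3-R and -0.27 ± 0.078 (SE, adjusted p = 0.00905) in erastin-R. The difference between the survivors, -0.32 ± 0.079 (SE, adjusted p = 0.00440), was -0.034 (adjusted p = 0.740) after the trend with GC content was removed. RPL36 had 315, 314 and 243 CPM in vehicle, 233, 174 and 193 CPM in erastin-R and 176, 204 and 200.1 CPM in RSL3-R and fell by 0.59 on the log2 scale in RSL3-R (adjusted p = 6.62e-04), with vehicle replicate 3 the lowest of its group but above all survivors. The members that rose in RSL3-R did so by less. RPL4, a protein with a long loop that reaches into the tunnel, had 864, 874 and 909 CPM in vehicle, 993, 930.2 and 933 CPM in erastin-R and 1013, 1001 and 1048 CPM in RSL3-R, all survivor libraries being above vehicle. RPL4 had a log2 fold change of 0.21 ± 0.053 (SE, adjusted p = 0.00447) in RSL3-R and 0.11 ± 0.053 (SE, adjusted p = 0.0927) in erastin-R. RPL13A, a protein also known to silence mRNAs of inflammation when released from the ribosome, was at 1128 ± 15.2 CPM (SD, n = 3) in vehicle and 1255 ± 33.1 CPM in RSL3-R, a log2 fold change of 0.15 ± 0.060 (SE, adjusted p = 0.0494) that lost its call when any vehicle library, erastin-R replicate 2 or RSL3-R replicate 2 or 3 was left out.

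Within the small subunit, 18 of 31 members fell in erastin-R and 19 in RSL3-R and none rose in either, with medians of -0.26 and -0.27. Between the survivor groups 6 were higher and 10 lower in RSL3-R (median -0.043). As shares, 58.1% fell in erastin-R (26.8% of all genes, with 27.1% rising) and 61.3% in RSL3-R (24.9%, with 23.8% rising). Between the survivors 19.4% were higher and 32.3% lower, near the 22.3% and 26.9% of all genes. With erastin-R replicate 1 left out, 19 fell and 4 rose in erastin-R (30.3% and 29.6% of all genes in that fit). In RSL3-R 25 fell and 1 rose (29.2% and 27.4%), and 10 were higher and 13 lower between the survivors (27.1% and 30%). RPS21 (ENSG00000171858, chr20:62387116-62388520), a small protein on the back of the subunit, had 250.3, 248 and 209 CPM in vehicle, 157, 309 and 273 CPM in erastin-R and 144, 136 and 146 CPM in RSL3-R. All RSL3-R libraries were below vehicle, erastin-R replicates 2 and 3 were above vehicle, and erastin-R replicate 1 was near the RSL3-R libraries. The log2 fold change was -0.73 ± 0.17 (SE, adjusted p = 0.00309) in RSL3-R, 0.064 ± 0.17 (SE, adjusted p = 0.772) in erastin-R and -0.79 ± 0.17 (SE, adjusted p = 0.00173) between them. Without erastin-R replicate 1, RPS21 was higher in erastin-R than in vehicle (0.30, adjusted p = 9.99e-05), a call not made with all 3 libraries. RPS29, a zinc-binding protein of the head of the subunit, had 204, 210.0 and 174 CPM in vehicle, 143, 217 and 200.2 CPM in erastin-R and 137, 123 and 139.6 CPM in RSL3-R. All RSL3-R libraries and erastin-R replicate 1 were below vehicle, and erastin-R replicates 2 and 3 were in or above the vehicle range. RPS29 fell in RSL3-R (-0.56 ± 0.12, SE, adjusted p = 0.00201), and the log2 difference between RSL3-R and erastin-R was -0.49 ± 0.12 (SE, adjusted p = 0.00503).

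RPS2 and RPS3, which line the channel where mRNA enters, also differed between the survivors. RPS2 had 1005, 1035 and 903 CPM in vehicle, 846, 942 and 942 CPM in erastin-R and 635, 692 and 715 CPM in RSL3-R, the RSL3-R libraries lying below all others. RPS2 had a log2 fold change of -0.53 ± 0.070 (SE, adjusted p = 2.81e-05) in RSL3-R and -0.11 ± 0.069 (SE, adjusted p = 0.202) in erastin-R, and between the survivors -0.42 ± 0.070 (SE, adjusted p = 2.24e-04). RPS3 had 836, 814 and 745 CPM in vehicle, 551, 905 and 879.8 CPM in erastin-R and 606, 625 and 603 CPM in RSL3-R, with erastin-R replicate 1 below all RSL3-R libraries and replicates 2 and 3 above them, so the survivor groups overlapped. Its log2 difference between the survivors, -0.35 ± 0.13 (SE, adjusted p = 0.0438), was -0.55 (adjusted p = 1.38e-11) without erastin-R replicate 1 and lost its call when any of the other libraries was left out. RPS19, needed for maturation of the small subunit and the gene most often mutated in Diamond-Blackfan anemia, had 664, 627 and 647 CPM in vehicle, 564, 731 and 704 CPM in erastin-R and 520.3, 540.2 and 515 CPM in RSL3-R, with RSL3-R below all other libraries. It was lower in RSL3-R than in vehicle (-0.30, adjusted p = 0.00720) and than in erastin-R (-0.34, adjusted p = 0.00290). RPS12 had 411, 385 and 387 CPM in vehicle, 266, 359 and 359.8 CPM in erastin-R and 290.1, 254 and 256 CPM in RSL3-R, fell by 0.56 on the log2 scale in RSL3-R (adjusted p = 3.14e-04) and by 0.26 in erastin-R (adjusted p = 0.0349), where replicate 1 was the lowest of its group and the value was -0.13 (adjusted p = 0.0225) without it. The call in erastin-R was lost without any 1 of the vehicle libraries or RSL3-R replicate 3, and the difference between the survivors, -0.30 (adjusted p = 0.0213), was lost without erastin-R replicate 2 or 3 or RSL3-R replicate 2 or 3.

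Other small subunit genes went the opposite way. RPS24, a gene of small subunit assembly, had 435, 454 and 442 CPM in vehicle, 366, 164 and 168 CPM in erastin-R and 353, 362 and 359 CPM in RSL3-R. Erastin-R replicates 2 and 3 were below every other library and replicate 1 was just above the RSL3-R libraries and below vehicle. Against vehicle, RPS24 was at a log2 fold change of -0.93 ± 0.22 (SE, adjusted p = 0.00255) in erastin-R, -1.42 (adjusted p = 1.76e-20) without replicate 1, and -0.31 ± 0.22 (SE, adjusted p = 0.258) in RSL3-R. The difference between the survivors of 0.62 ± 0.22 (SE, adjusted p = 0.0295) lost its call without any 1 RSL3-R library or erastin-R replicate 2 or 3, and was 1.11 (adjusted p = 6.90e-18) without erastin-R replicate 1. RPS27, a zinc-binding protein, had 418, 457 and 429 CPM in vehicle, 382, 168 and 179 CPM in erastin-R and 423, 411 and 410.3 CPM in RSL3-R. RSL3-R libraries lay in or just below the vehicle range, and all erastin-R libraries were lower. RPS27 had a log2 fold change of -0.84 ± 0.22 (SE, adjusted p = 0.00510) in erastin-R and -0.067 ± 0.22 (SE, adjusted p = 0.822) in RSL3-R, with a difference between the survivors of 0.77 ± 0.22 (SE, adjusted p = 0.00963). Without erastin-R replicate 1 the first was -1.33 (adjusted p = 4.40e-19) and the last 1.26 (adjusted p = 2.82e-18). RPS23, a protein of the decoding center, had 268, 384 and 350.4 CPM in vehicle, 353, 187 and 197 CPM in erastin-R and 377, 360.5 and 389 CPM in RSL3-R, so that vehicle replicate 1 lay below erastin-R replicate 1. It passed no test against vehicle, and the difference between the survivors was 0.61 ± 0.19 (SE, adjusted p = 0.0163), which was 0.96 (adjusted p = 4.78e-11) without erastin-R replicate 1 and lost its call without replicate 2 or 3.

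RPS14 and RPS15A were likewise higher in RSL3-R than in erastin-R (0.43, adjusted p = 0.00866, and 0.36, adjusted p = 0.0395, or 0.65, adjusted p = 9.34e-13, and 0.60, adjusted p = 2.45e-07 without erastin-R replicate 1), as was RPL21 of the large subunit (0.47, adjusted p = 0.0369, or 0.82, adjusted p = 5.95e-13 without it). RPS15A lost its call without vehicle replicate 2 or 3, erastin-R replicate 2 or 3 or RSL3-R replicate 2 or 3, and RPL21 without vehicle replicate 3, erastin-R replicate 2 or 3 or any RSL3-R library. RPL39 also stood higher in RSL3-R (0.44, adjusted p = 0.0405, or 0.75, adjusted p = 1.25e-10 without erastin-R replicate 1), a call lost without any 1 of the remaining libraries other than RSL3-R replicate 3. RPS18, the small subunit gene with the highest level per length, fell in both groups. It had 1124, 1162 and 1069.7 CPM in vehicle, 988, 793 and 835 CPM in erastin-R and 843, 833 and 863 CPM in RSL3-R, all survivors being below vehicle and erastin-R replicate 1 above the other survivors, and log2 fold changes of -0.36 ± 0.073 (SE, adjusted p = 9.29e-04) and -0.40 ± 0.073 (SE, adjusted p = 4.48e-04). RPS16, high per length of the principal transcript, was above erastin-R in RSL3-R (0.16, adjusted p = 0.0363), a call lost without vehicle replicate 2, erastin-R replicate 2 or 3 or RSL3-R replicate 2 or 3, and passed no test against vehicle. RPL7A, another of the highest members, fell by 0.28 on the log2 scale in RSL3-R (adjusted p = 7.55e-04) and by 0.16 in erastin-R, where the call was lost without vehicle replicate 1 or 2 or erastin-R replicate 2.

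**Figure D3:**
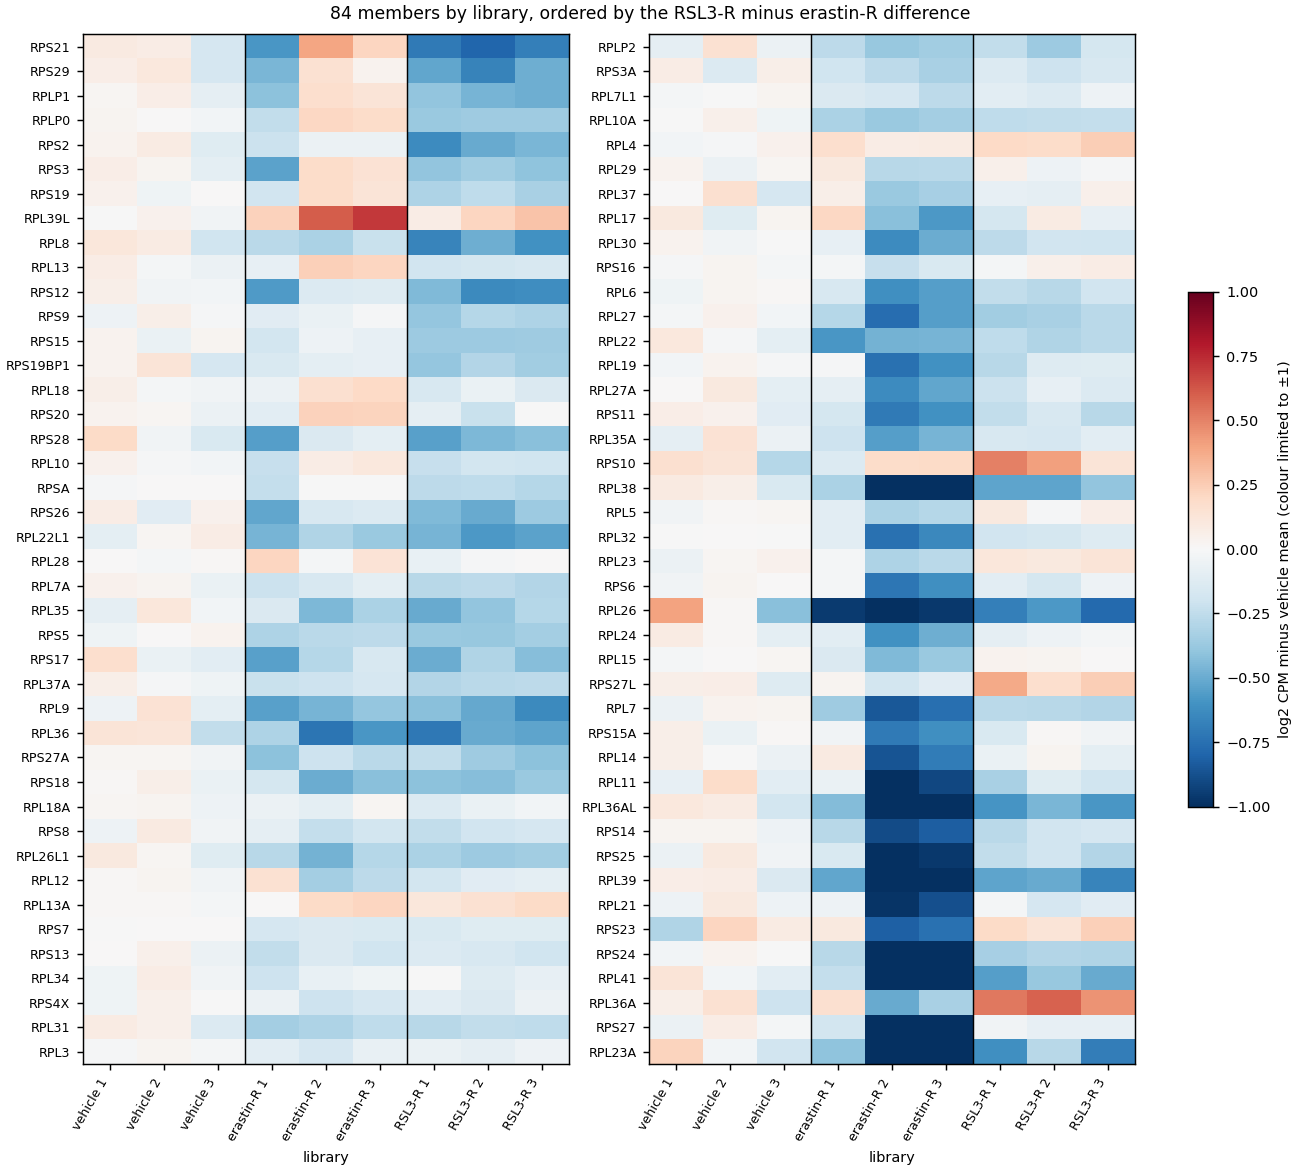
Log2 CPM of each tested member minus its mean in vehicle, by library, with members ordered from the lowest to the highest RSL3-R minus erastin-R difference and colours limited to 1 in either direction. Erastin-R replicate 1 is paler than or opposite to replicates 2 and 3 in many rows, for example RPS21 (157 CPM against 309.0 and 273) and RPL23A (251 CPM against 69.2 and 80.7), while the 3 RSL3-R libraries look alike.

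The P stalk, a flexible arm of the large subunit that recruits the GTPases of translation, is made of RPLP0 and dimers of RPLP1 and RPLP2. All 3 genes fell in RSL3-R (24.9% of all genes) and 1, RPLP2, fell in erastin-R (26.8%). RPLP0, the most abundant member by CPM, had 1989, 1961 and 1917 CPM in vehicle, 1650.5, 2261 and 2225 CPM in erastin-R and 1511, 1527 and 1526 CPM in RSL3-R. RSL3-R libraries were below all others, and erastin-R replicates 2 and 3 were above vehicle while replicate 1 was below it. The log2 fold change was -0.36 ± 0.092 (SE, adjusted p = 0.00479) in RSL3-R and 0.065 ± 0.091 (SE, adjusted p = 0.574) in erastin-R, and between the survivors -0.43 ± 0.092 (SE, adjusted p = 0.00158). RPLP1 had 519, 536 and 482 CPM in vehicle, 385, 576 and 559 CPM in erastin-R and 389, 371 and 365 CPM in RSL3-R, the same order of libraries apart from erastin-R replicate 1, which was within the RSL3-R range. RPLP1 had a log2 fold change of -0.45 ± 0.11 (SE, adjusted p = 0.00471) in RSL3-R and -0.017 ± 0.11 (SE, adjusted p = 0.913) in erastin-R, with -0.43 ± 0.11 (SE, adjusted p = 0.00598) between them. Without erastin-R replicate 1, RPLP0 and RPLP1 lay above vehicle in erastin-R (0.20, adjusted p = 2.28e-05, and 0.15, adjusted p = 0.00698). RPLP2 differed from its partners: it had 473, 560.2 and 483 CPM in vehicle, 419.6, 387 and 395 CPM in erastin-R and 425, 391 and 445 CPM in RSL3-R, all survivors were below vehicle, and the log2 fold changes were -0.33 ± 0.073 (SE, adjusted p = 0.00148) in erastin-R and -0.26 ± 0.073 (SE, adjusted p = 0.00806) in RSL3-R. The latter lost its call without vehicle replicate 2.

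RPL5 and RPL11 form with 5S rRNA the 5S RNP, which binds MDM2 when ribosome assembly is disturbed. Both fell in erastin-R, and neither passed the test in RSL3-R. RPL5 had 813, 837 and 845 CPM in vehicle, 775, 666 and 683 CPM in erastin-R and 889, 826 and 870.4 CPM in RSL3-R, erastin-R lying below vehicle and RSL3-R around or above it. Its log2 fold change was -0.23 ± 0.063 (SE, adjusted p = 0.00661) in erastin-R, and the difference between the survivors was 0.28 ± 0.063 (SE, adjusted p = 0.00203). RPL11 had 351, 421 and 344 CPM in vehicle, 353, 174 and 197 CPM in erastin-R and 297, 341 and 322 CPM in RSL3-R, and here erastin-R replicate 1 was in the vehicle range. Its log2 fold change was -0.62 ± 0.19 (SE, adjusted p = 0.0131) in erastin-R, -1.003 (adjusted p = 4.24e-13) without replicate 1, and its call was lost without vehicle replicate 2 or erastin-R replicate 2 or 3. The difference of RPL11 between the survivors did not pass the test (0.40, adjusted p = 0.0936). Of 8 proteins around the tunnel exit (RPL17, RPL19, RPL22, RPL23A, RPL26, RPL31, RPL35 and RPL39), 7 fell in erastin-R and 5 in RSL3-R, with medians of -0.46 and -0.34, and none rose. Of 12 members mutated in Diamond-Blackfan anemia, an inherited failure of red cell production, 9 fell in erastin-R and 6 in RSL3-R and none rose (medians -0.29 and -0.26). Over all genes 26.8% fell and 27.1% rose in erastin-R, and 24.9% fell and 23.8% rose in RSL3-R. These groups of members overlap, were chosen with earlier results of these data known, and are not independent of the counts over all members.

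The near copies are paralogs of a ribosomal protein, several of which can take its place in the ribosome. Of the 6 tested, 4 fell and 1 rose in erastin-R (26.8% and 27.1% of all genes), and 3 fell and 1 rose in RSL3-R (24.9% and 23.8%). RPL39L (ENSG00000163923, chr3:187120948-187180908), a copy of RPL39 known from testis and from some cancer lines, was the only member to rise in erastin-R. It had 22.95, 23.7 and 22.5 CPM in vehicle, 27.04, 35.1 and 37.7 CPM in erastin-R and 24.3, 26.7 and 27.99 CPM in RSL3-R, with all survivor libraries above vehicle and erastin-R replicate 1 the lowest of its group. RPL39L had a log2 fold change of 0.53 ± 0.11 (SE, adjusted p = 0.00127) in erastin-R and 0.19 ± 0.11 (SE, adjusted p = 0.178) in RSL3-R. Since RPL39 itself was lower, the CPM of RPL39L, not divided by gene length, was 13.4% of that of RPL39 in vehicle, 38.7% in erastin-R and 22.6% in RSL3-R. The erastin-R value rested on replicates 2 and 3. By library, the log2 ratio of RPL39L to RPL39 was -2.15, -1.03 and -0.82 in erastin-R. It was -2.97, -2.93 and -2.80 in vehicle and -2.30, -2.18 and -1.96 in RSL3-R, so erastin-R replicate 1 lay within the RSL3-R range. The difference of RPL39L between the survivors (-0.34, adjusted p = 0.0229) was lost without erastin-R replicate 2 or 3 or any 1 RSL3-R library.

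RPS27L, a copy of RPS27 known as a target gene of p53, had 32.6, 32.7 and 28.6 CPM in vehicle, 31.8, 27.4 and 28.9 CPM in erastin-R and 40.6, 35.1 and 36.99 CPM in RSL3-R. RSL3-R libraries were above all others. The log2 fold change was 0.26 ± 0.090 (SE, adjusted p = 0.0255) in RSL3-R, lost without vehicle replicate 3 or RSL3-R replicate 1, and -0.090 ± 0.091 (SE, adjusted p = 0.424) in erastin-R, with a difference between the survivors of 0.35 ± 0.090 (SE, adjusted p = 0.00505). RPL22L1 had 46.4, 50.5 and 52.5 CPM in vehicle, 36.1, 40.4 and 38.4 CPM in erastin-R and 36.04, 33.4 and 34.2 CPM in RSL3-R and RPL22 had 92.2, 85.1 and 80.3 CPM in vehicle, 57.2, 61.8 and 62.01 CPM in erastin-R and 71.8, 69.6 and 70.95 CPM in RSL3-R. Copy and parent fell together, RPL22L1 by 0.38 and 0.53 and RPL22 by 0.51 and 0.28 on the log2 scale in erastin-R and RSL3-R. RPL26L1 fell in both groups by 0.34 and 0.35, less than RPL26, so its CPM went from 82.5% of that of RPL26 in vehicle to 133% and 107%. These CPM are not divided by gene length (1164 bases for RPL26L1 and 2513 for RPL26). The count of RPL26 is also uncertain, since 60.7% of its coding length lies under exons of another gene. The ratios therefore do not show which of the pair is more abundant. RPL7 fell in both groups (-0.64, adjusted p = 8.69e-05, and -0.28, adjusted p = 0.0269), and RPL7L1, which has a part in assembly, fell in erastin-R (-0.19, adjusted p = 0.00870) and was at -0.096 (adjusted p = 0.158) in RSL3-R. The call of RPL7 in RSL3-R was lost without vehicle replicate 2 or 3 or any 1 RSL3-R library. RPL3 passed no test (-0.11, adjusted p = 0.0698, and -0.068, adjusted p = 0.289), and RPL10 was lower in RSL3-R (-0.20, adjusted p = 0.0380), a call lost without any 1 vehicle or RSL3-R library, and lower than in erastin-R (-0.20, adjusted p = 0.0444), a call lost without any 1 library other than erastin-R replicate 1. Of the 8 parents of near copies, 5 fell in erastin-R (26.8% of all genes), and in RSL3-R 5 fell (24.9%) and 1 (RPL36A) rose (23.8%).

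RPL36A and its autosomal copy RPL36AL moved apart in RSL3-R. RPL36AL had 166, 163 and 136 CPM in vehicle, 114, 61.3 and 64.7 CPM in erastin-R and 103, 113 and 103 CPM in RSL3-R and fell by 0.95 in erastin-R and 0.55 in RSL3-R on the log2 scale (adjusted p = 4.20e-04 and 0.0182), the latter lost without vehicle replicate 1 or 2 or RSL3-R replicate 1 or 3. RPL36A had 7.03, 7.53 and 5.86 CPM in vehicle, 7.56, 4.77 and 5.41 CPM in erastin-R and 9.74, 10.2 and 9.23 CPM in RSL3-R, with all RSL3-R libraries above the others. Its log2 fold change was 0.51 ± 0.17 (SE, adjusted p = 0.0197) in RSL3-R, lost without vehicle replicate 3 or RSL3-R replicate 2, and -0.20 ± 0.17 (SE, adjusted p = 0.346) in erastin-R. The level of RPL36A is uncertain. Of its coding length 67.3% lies under the read-through row RPL36A-HNRNPH2, and reads there could be assigned to either row or to none. The same held for RPL17 (98.2%) and RPS10 (56.9%), and these 3 genes had the lowest counts of the tested members, while the read-through rows themselves had 0 or 1 count per library. RPL17 passed no test, and neither did RPS10.

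**Figure D4:**
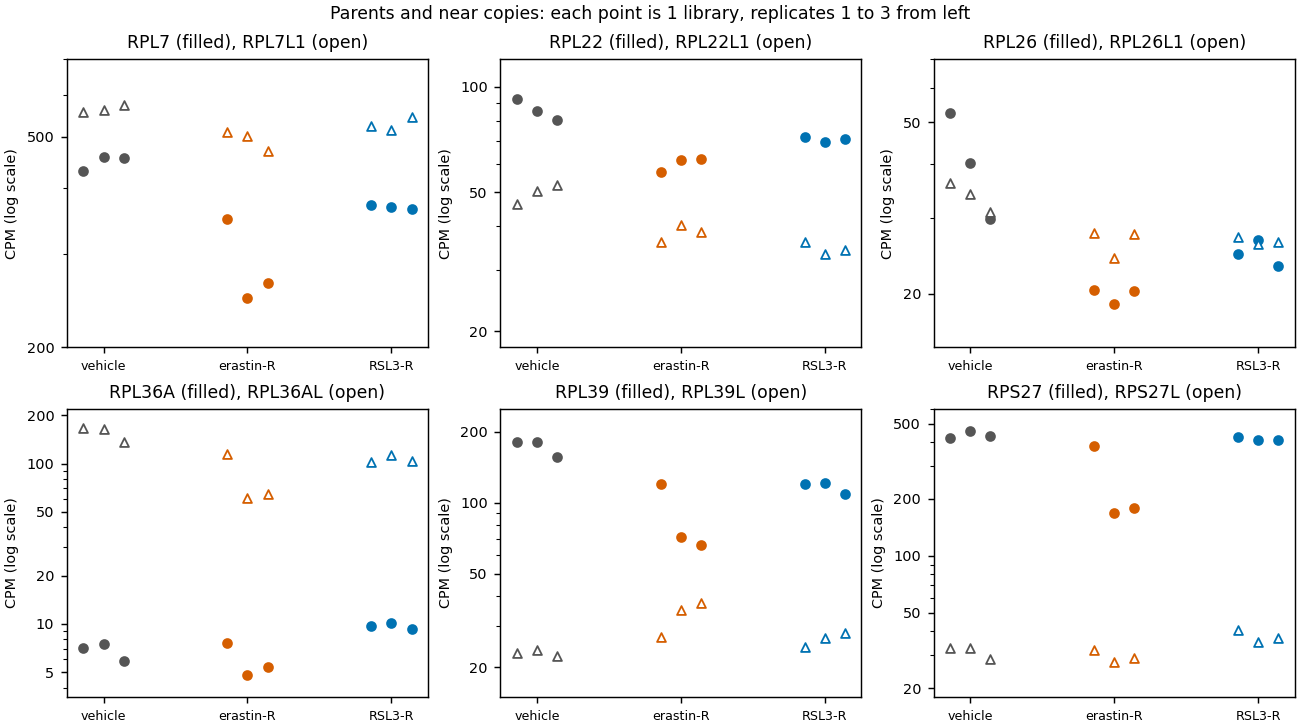
CPM of 6 parent genes (filled circles) and their near copies (open triangles) in each library on a log scale, replicates 1 to 3 from left to right in each group. RPL39 is lower and RPL39L higher in all survivor libraries than in vehicle, RPL36A lies below 11 CPM in every library, and RPS27L is highest in RSL3-R.

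RPS19BP1, the name match that binds RPS19 and is not a ribosomal protein, had 31.4, 33.4 and 27.1 CPM in vehicle, 27.5, 28.5 and 28.9 CPM in erastin-R and 23.4, 24.9 and 23.96 CPM in RSL3-R. It fell in RSL3-R (-0.35 ± 0.089, SE, adjusted p = 0.00541) and was at -0.11 ± 0.088 (SE, adjusted p = 0.289) in erastin-R. The difference between the survivors (-0.23, adjusted p = 0.0454) turned to 0.059 (adjusted p = 0.597) when the trend with GC content was removed, and was lost without vehicle replicate 1, erastin-R replicate 2 or 3 or any 1 RSL3-R library.

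Ribosomal protein genes have many processed pseudogenes, which can take reads from the parent. The files hold 1144 pseudogene rows named after 77 of the members, and these had 3.26 to 3.87% as many counts as the members in each library. The share differed between genes: it was 129% of the gene's own count for RPS10, 108% for RPL9, 34.6% for RPL26 and 20.6% for RPL39, and at least 10% for 12 members. With these counts added to each member, 53 members fell in erastin-R and 41 in RSL3-R, beside 4353 and 4029 of all 16101 genes in that fit. Only uniquely mapped reads were counted, so reads that match several genes equally are in no row, and this sum does not bring them back. Of the 50-base words in a member's transcripts, a median of 10.1% also occurred in another gene. The share was 52.9% for RPL10 and 37.4% for RPS2.

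GC content moved with the differences. The principal transcripts of the members had a median GC content of 49.0% (all genes 48.6%) and a median length of 994.5 bases (all genes 2793). Across the 84 members, which share libraries and depth, Pearson's r between the log2 fold change and GC content was 0.31 in erastin-R, -0.17 in RSL3-R and -0.45 between the survivors, and over all genes 0.13, -0.074 and -0.22. The gap of erastin-R replicate 1 to replicates 2 and 3 had r = -0.27 with GC content in the members and -0.37 in all genes. In the 28 members of highest GC content the median difference from vehicle (log2) was -0.11 in erastin-R and -0.25 in RSL3-R. In the 28 of middle GC content it was -0.37 and -0.26, and in the 28 of lowest GC content -0.31 and -0.16. These medians against vehicle did not follow the order of GC content. Between the survivors the medians did, with 0.21, 0.15 and -0.12 from lowest to highest GC content. There 5, 11 and 18 of 28 members were below 0. After the trend with GC content over all genes was removed, 57 members fell and 3 rose in erastin-R, 44 fell and 5 rose in RSL3-R, and 24 were higher and 16 lower in RSL3-R than in erastin-R, and the medians were -0.25, -0.21 and 0.070. Of all 16188 genes in that fit, 4701 fell and 4671 rose in erastin-R, and 4258 fell and 4278 rose in RSL3-R. Between the survivors 3891 were higher and 4401 lower. The part of GC content in single members was not tested further.

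**Figure D5:**
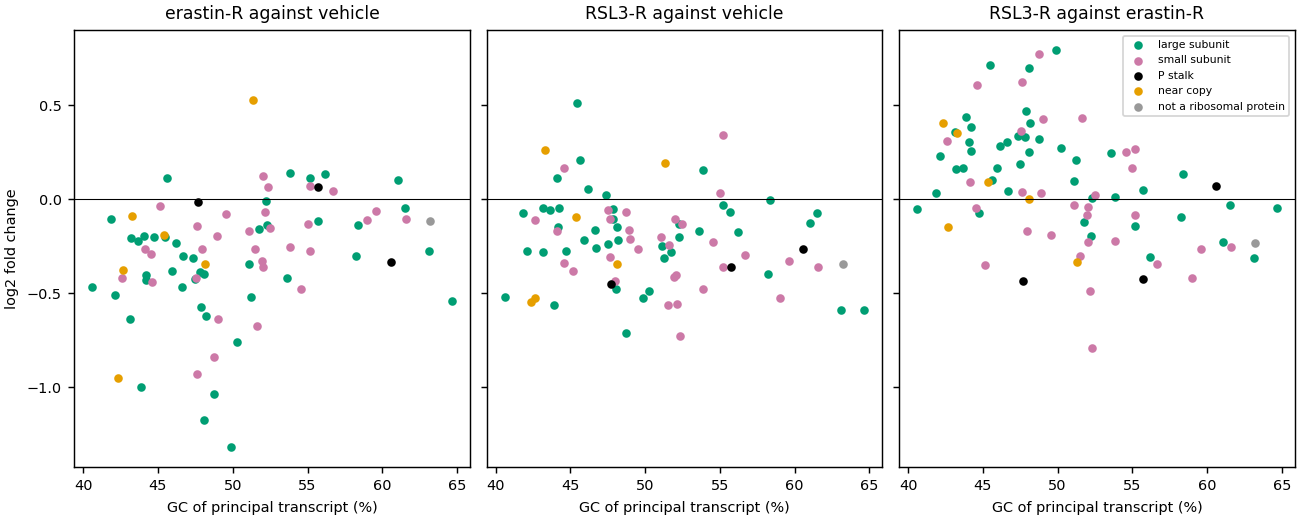
Log2 fold change of the 84 tested members against the GC content of their principal transcript, in the 3 comparisons, coloured by role. Pearson's r was 0.31 in erastin-R, -0.17 in RSL3-R and -0.45 between the survivors, and the lowest point in erastin-R is RPL23A at 49.9% GC.

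Other mRNAs with a TOP tract did not all move with the ribosomal protein genes. Of 20 tested, 4 rose and 7 fell in erastin-R (27.1% and 26.8% of all genes). In RSL3-R 11 rose and 6 fell (23.8% and 24.9%), and the median log2 fold change there was 0.21 against -0.22 for the members. HNRNPA1, an RNA-binding protein, had 1091 ± 36.8 CPM (SD, n = 3) in vehicle, 576 ± 127 in erastin-R and 737 ± 10.8 in RSL3-R and fell in both (-0.92, adjusted p = 8.59e-06, and -0.57, adjusted p = 6.47e-04). EEF1D, a subunit of the exchange factor of elongation, and EIF3K, a subunit of eIF3, fell in both as well (-0.59 and -0.70, and -0.56 and -0.62). FAU fell in both, by 0.28 and 0.52. By contrast, the elongation factor EEF2 and EIF3E, a subunit of eIF3, rose in both (0.39 and 0.31, and 0.34 and 0.46), and EEF1A1 (0.28, adjusted p = 0.00138) and EIF4B (0.39, adjusted p = 9.58e-04) rose in RSL3-R and passed no test in erastin-R. In erastin-R 13 of the 20 fell, in place of 7, when replicate 1 was left out (30.3% of all genes in that fit).

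Genes that serve the ribosomal proteins were mixed. The shares of all genes, for the counts below, were 27.1% rising and 26.8% falling in erastin-R, and 23.8% and 24.9% in RSL3-R. Of 9 genes that control TOP mRNA translation, 1 rose and 5 fell in erastin-R, and 1 rose and 6 fell in RSL3-R. The gene that rose was in both groups EIF4EBP1, the mTORC1 target that holds back cap-dependent translation (0.55, adjusted p = 6.62e-05, and 0.92, adjusted p = 6.04e-07), with 53.04 ± 4.25 CPM in vehicle, 77.5 ± 5.75 in erastin-R and 100.1 ± 6.31 in RSL3-R. EIF4EBP2, its relative, fell in both (-0.59, adjusted p = 2.27e-06, and -0.40, adjusted p = 8.94e-05), as did MLST8, a subunit of mTORC1 (-0.27, adjusted p = 0.0106, and -0.65, adjusted p = 1.86e-05). LARP1 passed neither test. Of 13 chaperones of ribosomal proteins and factors of subunit release, 2 rose and 8 fell in erastin-R and 3 rose and 6 fell in RSL3-R. PDCD2L, a relative of the RPS2 chaperone PDCD2, rose in erastin-R (0.998, adjusted p = 3.07e-05), and RRS1 and RPF2, which bring the 5S RNP into the pre-ribosome, fell there (-0.95, adjusted p = 2.17e-05, and -0.69, adjusted p = 3.77e-05), beside the fall of RPL5 and RPL11. RRS1 also fell in RSL3-R (-0.31, adjusted p = 0.0449). EIF6, which keeps the large subunit from joining early, fell in both (-0.44, adjusted p = 2.18e-04, and -0.67, adjusted p = 7.05e-06). HEATR3, a chaperone of RPL5, and BCCIP, of RPL23, fell in both (-0.47 and -0.46, and -0.38 and -0.45).

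Of 9 genes of ribosome rescue and quality control, 6 rose and 2 fell in erastin-R (27.1% and 26.8% of all genes). In RSL3-R 1 rose and 2 fell (23.8% and 24.9%), and 5 were lower in RSL3-R than in erastin-R (26.9%). TCF25 and HBS1L rose in erastin-R (0.60, adjusted p = 2.67e-06, and 0.56, adjusted p = 2.32e-05) and were at 0.020 and 0.051 in RSL3-R, and the difference between the survivors was -0.58 (adjusted p = 5.51e-06) and -0.51 (adjusted p = 7.09e-05). EDF1, which senses collided ribosomes, fell in both (-0.99, adjusted p = 1.88e-04, and -0.72, adjusted p = 0.00237). LTN1, the ligase that marks stalled chains, rose in both (0.55, adjusted p = 4.80e-05, and 0.41, adjusted p = 6.72e-04).

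The 78 mitochondrial ribosomal proteins, encoded in the nucleus and imported for the ribosome of the organelle, were compared as the most similar family. In erastin-R 29 fell and 12 rose (median -0.17), and in RSL3-R 40 fell and 3 rose (median -0.24). Of all genes 26.8% fell and 27.1% rose in erastin-R, and 24.9% and 23.8% in RSL3-R. Between the survivors 26.9% of all genes were lower in RSL3-R and 22.3% higher. Of the mitochondrial family 29 were lower in RSL3-R than in erastin-R and 10 higher (median -0.16), where the cytosolic members had 18 and 18 and a median of 0.058. A test of the difference between the families was not made.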

How the data were processed

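Vehicle, erastin-R and RSL3-R cells of the line MDA-MB-231 gave 3 libraries each, 9 in all, made after oligo(dT) selection and preparation with the NEBNext Ultra RNA kit. The authors deposited, for each library, raw counts per gene of uniquely mapped reads in exons, with GENCODE 29 genes on GRCh38; the submitters' processing notes name HISAT2 2.0.5 and featureCounts 1.5.0-p3. The strand setting is not given in the sources used here, so reads of overlapping antisense genes cannot be told apart. The authors also deposited FPKM values, which were not used here.

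Groups were taken from the labels. Genes that passed filterByExpr (16188, of which 84 members) were fitted with all 9 libraries in 1 model by the quasi-likelihood test of edgeR 4.0.16 in R 4.3.3, with TMM library sizes and Benjamini-Hochberg adjustment over all genes tested at 0.05. A second rule also required a log2 fold change of 1 or more in either direction. CPM are counts per 1000000 of the TMM-adjusted library size, and SE is the log2 fold change divided by the square root of F. Libraries held 15405102 to 17273464 counts, and the tested members a median of 6024 counts per library. Shares were compared by an exact permutation test. Tests were checked on simulated data: for erastin-R against vehicle (15872 genes), 83 of 99 genes changed by a log2 fold change of 1 were recovered, 29 of 97 changed by 0.4, and 5 unchanged genes were called. The levels of GC content, length and pseudogenes were computed with Python 3.11.15, pandas 2.3.3 and numpy 2.4.6, and figures with matplotlib 3.10.9. RefSeq promoters (GRCh38.p14) were matched by symbol. They were given for 68 members.

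The members and gene lists were chosen with earlier results of these data known. Genes were named by rule: in each comparison the 8 largest changes each way among members past the threshold, the P stalk, near copies and their parents, the 5S RNP, RPS19BP1, the 5 highest members per length, the 3 lowest, and the 3 largest changes of each other list. RPL9, FAU, EEF2, EEF1A1, EIF4B, EIF3E, LARP1 and the markers of the line and of other cell types were named after their values were seen. Replicate numbers did not pair the libraries: deviations of same-numbered libraries from their group means correlated by -0.0904 to 0.0518. The alternatives were DESeq2 1.42.0, unadjusted library sizes, TMM without the members, no low-count filter, only the 2 groups compared, a replicate block, pseudogene counts added, trends with length and GC content removed (loess, the latter added after the data were seen) and each library left out.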

Additional observations from a re-analysis of the deposited data

Results flagged for a closer look

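For 13 members the log2 fold change against vehicle had opposite signs in the survivor groups and the direct comparison passed an adjusted p of 0.05 in edgeR's quasi-likelihood test. Both fold changes use the same vehicle libraries, and for all 13 members neither or only 1 of them passed the test, so that what differs is RSL3-R from erastin-R and not each group from vehicle.

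Members of the P stalk and small subunit make up most of those lower in RSL3-R. The log2 difference, RSL3-R minus erastin-R, was -0.79 for RPS21, -0.43 for RPLP0, -0.34 for RPS19 and -0.23 for RPS20, and for the large subunit genes RPL13 and RPL18 it was -0.31 and -0.23. Those higher in RSL3-R were RPS16 with 0.16, RPL5 with 0.28, RPL23 with 0.31, RPL15 with 0.34, RPS27L with 0.35, RPS23 with 0.61 and RPL36A with 0.71. RPL36A had a mean of 7.48 CPM and most of its coding length lies under a read-through row. The difference was lost for RPS23 without erastin-R replicate 2 or 3, and for RPS16 without vehicle replicate 2, erastin-R replicate 2 or 3 or RSL3-R replicate 2 or 3. It was kept for RPS21, RPLP0, RPS19, RPL5, RPS27L and RPL36A when any 1 library was left out. For these it was also kept in every other setting, including those with the GC trend removed. For RPL13, RPL15, RPL18, RPL23 and RPS20, which the naming rule did not take, this is not given here. RPS20 was at an adjusted p of 0.0410, and its survivor groups overlapped.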

How the results depend on the processing

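The numbers of members that fell were 43 to 57 in erastin-R and 35 to 60 in RSL3-R over the settings that kept all libraries, and the medians kept their sign. The number that rose in erastin-R, 1, was 3 with total counts in place of TMM, 2 with the gene length trend removed, and 3 with the GC trend removed, alone, with the replicate block or with the length trend; in these 3 GC settings the number that fell by at least 1 on the log2 scale was 2 in place of 4. Between the survivors, 32 members in place of 18 were higher without the low-count filter (3788 of all 34018 genes in that fit). When only these 2 groups were fitted, 10 in place of 18 were lower (3588 of all 15740 genes). With mitochondrial counts left out, the share difference was -0.637 points in erastin-R against vehicle (-0.513 with them) and 0.160 points in RSL3-R against erastin-R (0.0191 with them). RPS19BP1, at -0.23 between the survivors, turned to 0.059 with the GC trend removed, 0.061 with the block as well and 0.038 with the length trend as well. The causes were not tested.

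Leaving out 1 library, the members that rose in erastin-R numbered 1 to 10, those that fell 42 to 59 and those that fell by at least 1 on the log2 scale 2 to 10, and the median was -0.30 to -0.23. In RSL3-R, 1 to 7 rose and 29 to 60 fell, and the median was -0.26 to -0.17. Between the survivors, 9 to 41 were higher and 10 to 23 lower, 0 to 4 and 0 to 1 by at least 1, and the median was 0.051 to 0.10. The share difference was -0.583 to -0.470 points in erastin-R, -0.564 to -0.450 in RSL3-R and -0.0196 to 0.0617 between the survivors.

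With the replicate number as a block, 49 members fell and 1 rose in erastin-R (median -0.27), 40 fell and 3 rose in RSL3-R (median -0.22), and 24 were higher and 15 lower in RSL3-R than in erastin-R. Of all 16188 genes in that fit, 4209 fell and 4229 rose in erastin-R, and 3852 fell and 3656 rose in RSL3-R. Between the survivors 3494 were higher and 4120 lower. The numbers did not pair the libraries, with a mean correlation of -0.0049 between deviations of same-numbered libraries and 0.0026 between others. Of 67 results of named members past the threshold, 44 stayed past it in every setting. The members had a median of 6024 counts per library, and 4 of the 84 tested had a mean under 20 CPM.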
